A study of Homo sapiens with 6 samples.

Results

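The type I interferon response genes described here are 31 human genes chosen by symbol, and all 31 were found among the 17318 genes listed for each library. They are genes that many cell types switch on after contact with interferon, and they were followed in SNU216, an established gastric cancer cell line. The study compared 3 siOXTR libraries, whose cells received an siRNA directed at OXTR, the gene of the oxytocin receptor, with 3 siControl libraries, whose cells received a control siRNA, each for 48 h. All cells belonged to a single line grown in RPMI1640 with fetal bovine serum, and the siRNA sequences were not given in the sources used here. An untransfected group was not analysed here, so both groups carry a transfection. Values are FPKM, fragment numbers scaled to transcript length and to the total of the library, so levels can be set side by side between genes.

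Type I interferons bind the IFNAR1 and IFNAR2 receptor, whose kinases JAK1 and TYK2 phosphorylate STAT proteins. STAT2 joins IRF9 in a complex, ISGF3, that binds a short DNA element in the promoters of its target genes, the interferon-stimulated response element. The targets include enzymes and binding proteins that act on viral RNA, the small protein modifier ISG15, and the sensors and transcription factors that start the response itself. Lambda interferons act through IFNLR1 and IL10RB, mostly in epithelia, and use the same complex.

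The response element was looked for on either strand as GAAA, 2 bases of any kind and GAAA again (TTTC, 2 bases and TTTC when read on the other strand), in RefSeq windows of 250 bases before to 50 bases after each annotated start (GRCh38.p14). Promoters were matched by gene number for 24 of the 31 genes (not IFIT2, MX2, OAS2, OASL, IRF7, USP18 and TRIM22). The motif was found for 17 of these 24 genes (70.8%), against 3.83% of 9511 tested genes with a promoter and 3.57% of all 35116 promoters. The genes without a match were CMPK2, DDX58, IRF9, OAS1, SAMD9L, STAT2 and XAF1. The 8 stretches below are shown because they carry the matches of genes that lay on opposite sides of siControl, with RSAD2, BST2, IFI6 and IFIT1 below it and the other 4 above it. They run from 5′ to 3′ on the gene's strand and end before the start site, and capitals mark each match, including matches that share bases.
RSAD2, chr2:6877622-6877651, plus strand: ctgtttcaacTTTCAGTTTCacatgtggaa
BST2, chr19:17405735-17405770, minus strand: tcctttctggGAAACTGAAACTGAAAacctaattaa
IFI6, chr1:27672266-27672358, minus strand: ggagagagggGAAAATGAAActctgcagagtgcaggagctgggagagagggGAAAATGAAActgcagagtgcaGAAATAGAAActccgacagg
IFIT1, chr10:89392497-89392539, plus strand: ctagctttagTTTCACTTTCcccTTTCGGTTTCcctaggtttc
IFIT3, chr10:89332425-89332497, plus strand: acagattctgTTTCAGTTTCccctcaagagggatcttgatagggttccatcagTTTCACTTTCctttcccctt
ISG15, chr1:1013374-1013409, plus strand: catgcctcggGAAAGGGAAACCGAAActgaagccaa
HERC5, chr4:88456984-88457064, plus strand: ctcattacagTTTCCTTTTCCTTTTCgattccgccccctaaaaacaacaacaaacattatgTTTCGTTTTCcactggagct
DDX60, chr4:168318786-168318850, minus strand: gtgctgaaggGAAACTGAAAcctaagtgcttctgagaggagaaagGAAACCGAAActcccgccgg
In BST2, ISG15 and HERC5 a pair of matches shared bases, and IFI6 held 3 separate matches, at 156, 115 and 93 bases before its start. IFIT3 had another window, around the start at 89327997, with 2 matches that are not printed. RSAD2 had another window, around the start at 6865885, with no match.

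**Figure D1:**
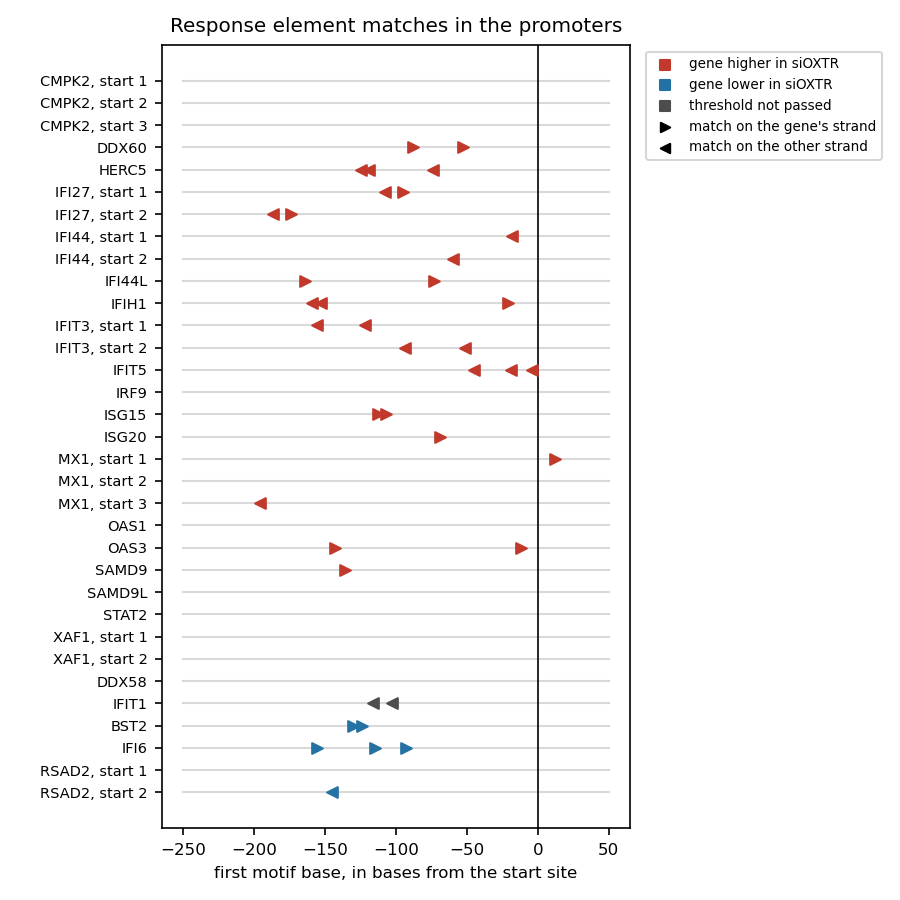
Position of each motif match in the RefSeq promoter windows of 24 genes, in bases from the annotated start site (0), with a row for each start and the arrow giving the strand. All 3 genes that were lower in siOXTR and 13 of the 19 that were higher held a match in at least 1 window.

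OXTR itself followed the labels in every library, with 4.76, 4.65 and 5.34 FPKM in siOXTR, against 39.37, 38.87 and 39.02 FPKM in siControl (log2 fold change -2.76, adjusted p = 6.39e-11, limma). Depth was unknown, since low values showed no common step of whole fragments, and no batch was labelled. The FPKM of a library summed to between 446246 and 459595 in siOXTR and to between 417829 and 434167 in siControl. Scaling mattered for small changes: over the 11550 tested genes the median log2 fold change was 0.13 in the deposited values and 0.012 after TMM scaling, which removes a shift shared by most genes. Values after TMM scaling are therefore given beside the deposited ones. All 7 epithelial markers were present, with a summed level of 8063 to 8225 FPKM in siOXTR and 7024 to 8097 FPKM in siControl, and among them CDH1, EPCAM and CLDN4 fell under either scaling, KRT19 rose as deposited only, by 0.27 on the log2 scale (0.18 without siControl replicate 1), and the other 3 did not pass with all 6 libraries. The 5 listed fibroblast markers summed to at most 0.81 FPKM in siOXTR and 2.02 FPKM in siControl, with DCN at 0 to 0.02 FPKM. Of blood and endothelial markers, 8 were listed and summed to 1.97 to 3.15 FPKM in siOXTR and 1.40 to 2.19 FPKM in siControl, with CD3E at 0 in 5 of 6 libraries. The highest values were those of PTPRC and LYZ in siOXTR replicate 3, at 1.67 and 1.24 FPKM. Nothing in the labels ties the libraries to separate cultures, and p-values then reflect only how these libraries differ, which may be technical.

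The 31 genes were well expressed in both groups. All passed the filter of a 6-library mean of 1 FPKM or more and entered the test. Their median level was 77.8 FPKM, against 13.4 FPKM for all tested genes, and 16 of them were among the 1000 most abundant of the listed genes. ISG15 and IFI6 ranked 14 and 16 by mean FPKM, and both of them together held 44.3% to 45.6% of the summed level of the 31 genes in siOXTR and 46.7% to 49.6% in siControl. The least abundant by this mean were IFIT5, IFI44L and ISG20. The 31 genes made up 1.67% to 1.69% of the summed FPKM in siOXTR libraries, above the 1.55% to 1.65% in siControl libraries.

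**Figure D2:**
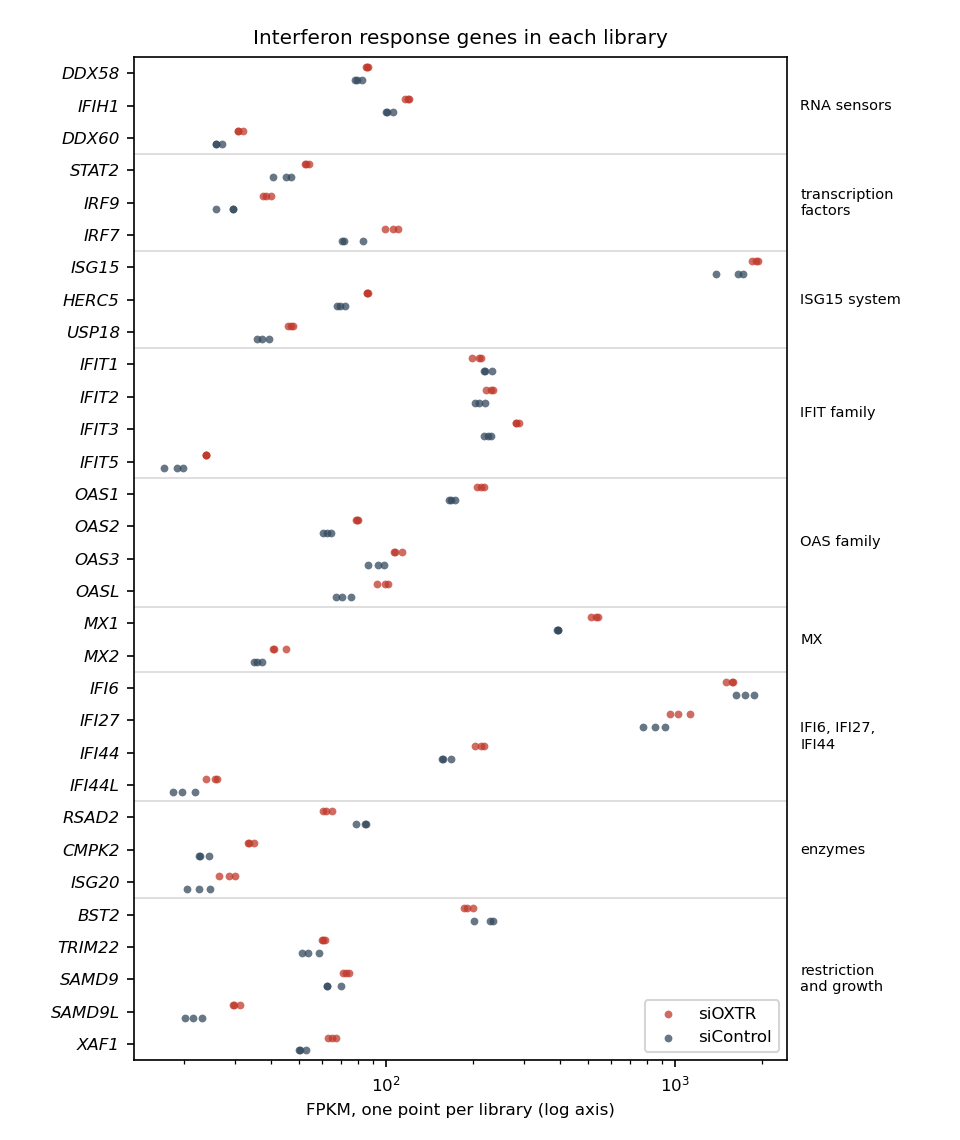
FPKM as deposited, without TMM scaling, of the 31 genes in each library on a log axis, siOXTR above siControl within each row, with genes ordered by role. In every row the 3 siOXTR points lie on one side of the 3 siControl points, above them in 27 genes and below them in RSAD2, BST2, IFI6 and IFIT1.

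Most of the response genes were modestly higher in siOXTR. Of the 31, 25 rose, 3 fell (RSAD2, BST2 and IFI6) and 3 did not pass the threshold (IFIT1, IFIT2 and DDX58), by limma on log2(FPKM + 1) at an adjusted p under 0.05. Rises were common among all genes, with 42.2% of the 11550 tested genes higher and 17.6% lower, beside 80.6% and 9.68% of the response genes. Their median log2 fold change was 0.30, at percentile 81.1 of all tested genes. After TMM scaling 16 response genes were higher and 4, with IFIT1 added, lower, against 19.2% and 24.6% of all tested genes, and their median was 0.17. In the deposited values the groups did not overlap for any of the 31 genes, with siOXTR above in 27 and below in 4, against 45.2% and 19.2% of all tested genes. This separation was not counted after TMM scaling. It depends on the scaling, since DDX58 and IFIT2, both among the 27, had log2 fold changes of -0.024 and -0.011 after TMM scaling. Since the genes were chosen by name with earlier results of these data known, no test of the list as a whole was made. In bulk RNA, a change in the share of responding cells and a change in RNA per cell cannot be told apart, for rises or for falls. The count of 3 lower genes became 2 with no filter on low values, and 1, RSAD2, without siOXTR replicate 3 or without siControl replicate 2.

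**Figure D3:**
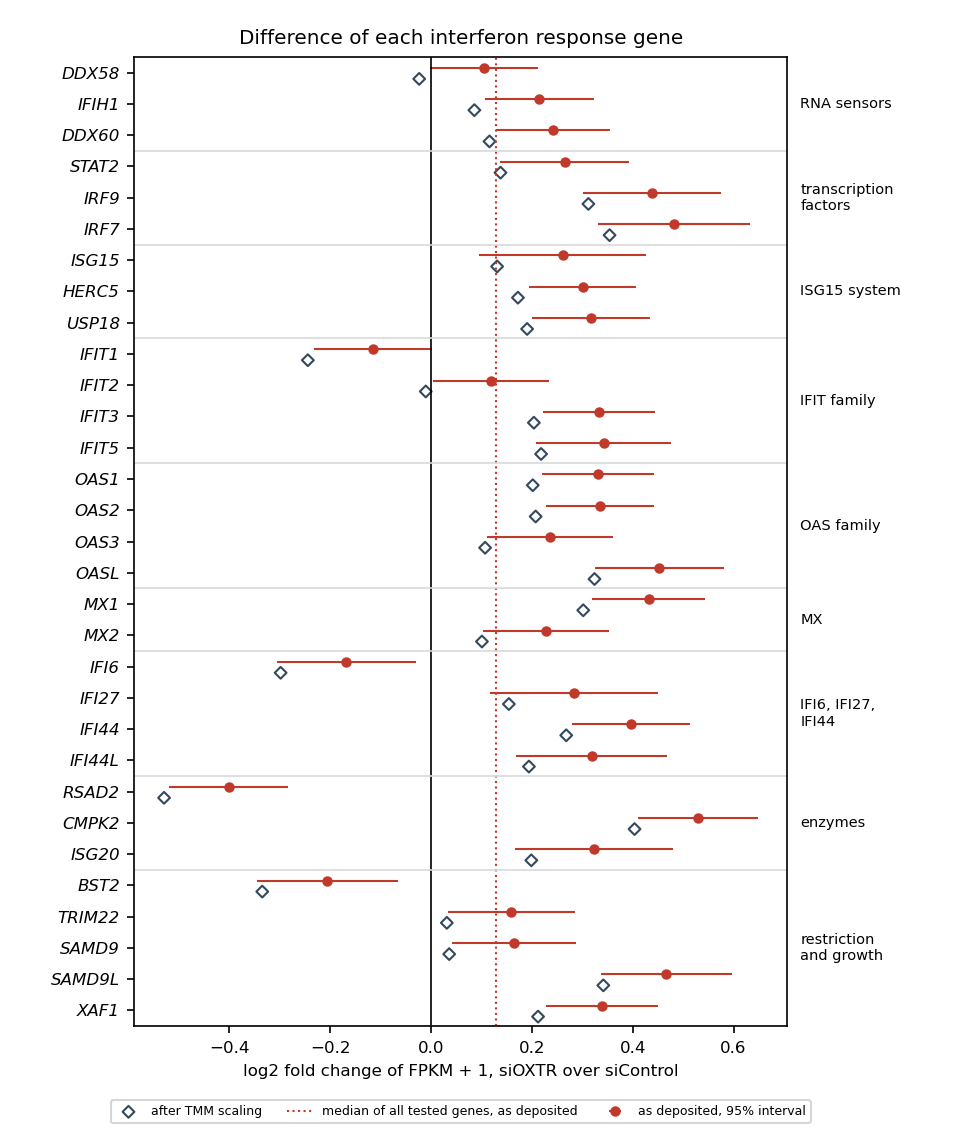
Log2 fold change of FPKM + 1 (siOXTR over siControl) for each of the 31 genes as deposited, with its 95% interval, and after TMM scaling, with a dotted line at the median of all tested genes. Deposited values run from -0.40 for RSAD2 to 0.53 for CMPK2, and TMM scaling moves every gene down, so that DDX58 and IFIT2, neither of which passed the threshold, change sign.

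The RNA sensors start the response to viral RNA, and of these genes IFIH1 and DDX60 rose as deposited while DDX58 did not pass. DDX58, now named RIGI, encodes RIG-I, a helicase that binds viral RNA with a 5′ triphosphate, and it stood at 85.89, 86.49 and 84.97 FPKM in siOXTR, against 79.00, 77.81 and 82.37 FPKM in siControl. It was slightly above siControl in every library, with a log2 fold change of 0.10 (SE 0.0491, adjusted p = 0.083) that missed the threshold and was -0.024 after TMM scaling. Without siControl replicate 3 it passed, at an adjusted p of 0.0447 (limma). IFIH1, which encodes MDA5, a sensor of long duplex RNA, had 116.51, 118.76 and 119.65 FPKM in siOXTR, against 100.44, 99.70 and 105.42 FPKM in siControl. DDX60, a helicase gene linked to RIG-I signalling, had 32.00, 30.72 and 30.74 FPKM in siOXTR, against 26.98, 25.80 and 25.83 FPKM in siControl. Both rose as deposited, IFIH1 by 0.21 (SE 0.0496, adjusted p = 0.00292) and DDX60 by 0.24 (SE 0.0519, adjusted p = 0.00185) on the log2 scale, and neither passed after TMM scaling, at 0.086 (adjusted p = 0.183) and 0.12 (adjusted p = 0.0911).

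The transcription factor genes rose, IRF7 and IRF9 under either scaling. IRF7, a factor that induces interferon genes and is itself induced by interferon, had 105.53, 109.51 and 99.23 FPKM in siOXTR, against 70.03, 83.30 and 71.28 FPKM in siControl. IRF9, the DNA-binding subunit of ISGF3, had 38.46, 37.53 and 39.77 FPKM in siOXTR, against 29.51, 29.61 and 25.70 FPKM in siControl. STAT2, its partner subunit, had 52.85, 52.51 and 54.03 FPKM in siOXTR, against 46.80, 44.92 and 40.65 FPKM in siControl. IRF7 averaged 105 ± 5.18 FPKM in siOXTR and 74.9 ± 7.33 FPKM in siControl (SD, n = 3 each), a log2 fold change of 0.48 (SE 0.0691, adjusted p = 0.000108), among the largest of the 31 genes. IRF9 changed by 0.44 (SE 0.0628, adjusted p = 0.000109) and STAT2 by 0.26 (SE 0.0587, adjusted p = 0.00226) as deposited. After TMM scaling IRF7 stood at 0.35 (adjusted p = 0.00105) and IRF9 at 0.31 (adjusted p = 0.0015), whereas STAT2, at 0.14 (adjusted p = 0.0761), missed the threshold.

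ISG15 is a ubiquitin-like protein that is joined to newly made proteins, HERC5 is the ligase that attaches it, and USP18 removes it and also dampens receptor signalling. All 3 genes rose as deposited. ISG15, the most abundant response gene in siOXTR, had 1898.80, 1927.44 and 1841.16 FPKM in siOXTR, against 1386.84, 1712.57 and 1649.41 FPKM in siControl. Its siControl replicate 1 was the lowest of the 6 libraries, and without it the log2 fold change was 0.17 (adjusted p = 0.0267, limma). With all libraries its rise of 0.26 (SE 0.0761, adjusted p = 0.011) on the log2 scale missed the threshold after TMM scaling, at 0.13 (adjusted p = 0.176). HERC5 had 85.56, 85.98 and 86.31 FPKM in siOXTR, against 71.89, 69.21 and 67.78 FPKM in siControl. USP18 had 45.84, 46.84 and 47.72 FPKM in siOXTR, against 35.66, 37.19 and 39.32 FPKM in siControl. HERC5 changed by 0.30 (SE 0.0490, adjusted p = 0.000289) and USP18 by 0.32 (SE 0.0539, adjusted p = 0.000384), and both kept their call after TMM scaling, at 0.17 (adjusted p = 0.0136) and 0.19 (adjusted p = 0.0127).

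The IFIT genes encode tetratricopeptide repeat proteins that hold back the translation of foreign RNA, and they split. They lie in a row on chromosome 10 between 89283694 and 89421001 (GRCh38, GENCODE release 29), in the order IFIT2, IFIT3, IFIT1 and IFIT5. IFIT3 had 280.48, 280.63 and 287.61 FPKM in siOXTR, against 224.34, 218.05 and 230.83 FPKM in siControl. IFIT5 had 23.74, 23.86 and 23.81 FPKM in siOXTR, against 18.94, 17.03 and 19.84 FPKM in siControl. Both rose under either scaling, IFIT3 by 0.33 (SE 0.0507, adjusted p = 0.000172) and IFIT5 by 0.34 (SE 0.0618, adjusted p = 0.000589) as deposited. IFIT1, which binds RNA with an unmethylated cap, went the other way, with 198.42, 208.91 and 212.40 FPKM in siOXTR, against 218.72, 219.72 and 233.01 FPKM in siControl. Its siOXTR libraries all lay below its siControl libraries, with a fitted difference of -0.12 (SE 0.0536, adjusted p = 0.0811) on the log2 scale that missed the threshold as deposited and passed it after TMM scaling, at -0.24 (adjusted p = 0.00283). IFIT2 had 222.30, 230.15 and 234.13 FPKM in siOXTR, against 219.47, 203.15 and 209.68 FPKM in siControl. Its log2 fold change of 0.12 (95% interval 0.0034 to 0.23, adjusted p = 0.0706) missed the threshold, and it was -0.011 after TMM scaling, though without siControl replicate 1 it passed, at an adjusted p of 0.0401 (limma). The annotation places the opposite-strand gene LIPA over IFIT1, IFIT2 and IFIT3. LIPA itself had 62.07, 62.47 and 61.41 FPKM in siOXTR, against 173.06, 171.15 and 196.37 FPKM in siControl, a log2 fold change of -1.52, and since strand-specific counting is not stated in the sources used here, its part in the IFIT values was not tested.

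The OAS genes encode oligoadenylate synthetases, enzymes that detect duplex RNA and answer it by making a short oligoadenylate messenger. All 4 rose as deposited, and OAS1, OAS2 and OASL also after TMM scaling. OASL, a family member without synthetase activity that aids RIG-I, had the largest change of the 4, with 101.09, 98.77 and 92.55 FPKM in siOXTR, against 70.17, 75.66 and 67.18 FPKM in siControl (log2 fold change 0.45 (SE 0.0589, adjusted p = 4.96e-05)). OAS1 had 212.46, 205.80 and 217.97 FPKM in siOXTR, against 167.31, 172.68 and 165.22 FPKM in siControl. OAS2 had 78.97, 78.41 and 79.55 FPKM in siOXTR, against 64.39, 62.36 and 60.48 FPKM in siControl. Their log2 fold changes were nearly the same, 0.33 (SE 0.0508, adjusted p = 0.000185) for OAS1 and 0.34 (SE 0.0493, adjusted p = 0.000133) for OAS2. OAS3, which lies between both of them on chromosome 12, had 113.85, 106.44 and 107.31 FPKM in siOXTR, against 97.87, 93.41 and 86.71 FPKM in siControl. It changed by 0.24 (SE 0.0578, adjusted p = 0.00418) as deposited and missed the threshold after TMM scaling, at 0.11 (adjusted p = 0.152).

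MX1 and MX2 encode dynamin-like GTPases that block viral nucleocapsids, and they are neighbours on chromosome 21. MX1 was far more abundant, with 530.66, 511.50 and 542.17 FPKM in siOXTR, against 392.70, 392.44 and 388.72 FPKM in siControl. MX2 had 40.62, 40.82 and 45.06 FPKM in siOXTR, against 35.73, 34.75 and 37.05 FPKM in siControl. MX1 rose by 0.43 (SE 0.0516, adjusted p = 2.5e-05) and kept its call after TMM scaling, at 0.30 (adjusted p = 0.000458). MX2 rose by 0.23 (SE 0.0574, adjusted p = 0.00494) as deposited and did not pass after TMM scaling, at 0.10 (adjusted p = 0.178).

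Among the IFI genes, IFI6 alone was lower. IFI6, a small membrane protein that limits cell death and flavivirus replication, had 1504.59, 1571.06 and 1584.52 FPKM in siOXTR, against 1630.08, 1745.62 and 1869.46 FPKM in siControl. It averaged 1553 ± 42.8 FPKM in siOXTR and 1748 ± 119.7 FPKM in siControl (SD, n = 3 each), with a log2 fold change of -0.17 (SE 0.0633, adjusted p = 0.0363) as deposited and -0.30 (adjusted p = 0.00211) after TMM scaling. The deposited call was lost when any library except siControl replicate 1 was left out, with adjusted p from 0.0654 to 0.124 (limma). IFI27, of the same gene family as IFI6 and a mitochondrial or nuclear membrane protein, had 960.40, 1019.00 and 1121.47 FPKM in siOXTR, against 773.17, 849.50 and 925.35 FPKM in siControl. It rose by 0.28 (SE 0.0765, adjusted p = 0.00717) and missed the threshold after TMM scaling, at 0.15 (adjusted p = 0.119). IFI44 had 203.09, 212.22 and 218.62 FPKM in siOXTR, against 156.47, 156.97 and 167.24 FPKM in siControl. Its neighbour IFI44L, a paralog on chromosome 1, had 23.71, 25.49 and 26.02 FPKM in siOXTR, against 19.66, 18.31 and 21.87 FPKM in siControl. Both rose, by 0.40 (SE 0.0539, adjusted p = 6.99e-05) for IFI44 and 0.32 (SE 0.0685, adjusted p = 0.00186) for IFI44L, and both kept their call after TMM scaling.

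RSAD2 and CMPK2 were the extremes of the list, in opposite directions. RSAD2 encodes viperin, an enzyme on the endoplasmic reticulum that makes a chain-terminating ribonucleotide, and CMPK2 encodes a kinase that makes its nucleotide substrate. RSAD2 had 60.37, 64.98 and 61.77 FPKM in siOXTR, against 84.14, 78.67 and 85.35 FPKM in siControl. It fell, averaging 62.4 ± 2.36 FPKM in siOXTR and 82.7 ± 3.56 FPKM in siControl (SD, n = 3 each). Its log2 fold change was -0.40 (SE 0.0542, adjusted p = 6.72e-05) as deposited and -0.53 (adjusted p = 4.4e-06) after TMM scaling. CMPK2 had 33.15, 34.78 and 33.48 FPKM in siOXTR, against 22.45, 22.65 and 24.30 FPKM in siControl. Its log2 fold change was 0.53 (SE 0.0546, adjusted p = 6.7e-06) as deposited and 0.40 (adjusted p = 6.15e-05) after TMM scaling. The genes lie head to head on chromosome 2 between 6840570 and 6898239 and share 830 bases on opposite strands in the annotation, so reads there cannot be assigned without strand. ISG20, an exonuclease gene that degrades RNA, rose by 0.32 (SE 0.0721, adjusted p = 0.00234) and by 0.20 (adjusted p = 0.0413) after TMM scaling, with library values of 26.39, 28.63 and 30.08 FPKM in siOXTR, against 22.52, 20.41 and 24.56 FPKM in siControl.

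Of the 5 restriction and growth genes 4 rose and BST2 fell. BST2, which encodes tetherin, a membrane protein that holds budding virus at the cell surface, had 189.91, 199.29 and 185.14 FPKM in siOXTR, against 200.81, 234.41 and 228.71 FPKM in siControl. Its siControl replicate 1 was closest to the siOXTR libraries, and its log2 fold change was -0.21 (SE 0.0646, adjusted p = 0.0161) as deposited and -0.33 (adjusted p = 0.000995) after TMM scaling. Without siOXTR replicate 3 the adjusted p of BST2 was 0.0633, and without siControl replicate 2 it was 0.0666 (limma). SAMD9L, a growth suppressor gene next to its paralog SAMD9 on chromosome 7, had 31.15, 29.79 and 29.55 FPKM in siOXTR, against 23.04, 20.17 and 21.53 FPKM in siControl. SAMD9 had 74.09, 71.00 and 72.53 FPKM in siOXTR, against 69.51, 62.18 and 62.47 FPKM in siControl. SAMD9L rose by 0.47 (SE 0.0598, adjusted p = 4.37e-05) and kept its call after TMM scaling, at 0.34 (adjusted p = 0.000551), whereas SAMD9 rose by 0.16 (SE 0.0564, adjusted p = 0.0247) and stood at 0.036 (adjusted p = 0.635) after it. The deposited call of SAMD9 was lost without siOXTR replicate 1, siOXTR replicate 3, siControl replicate 2 or siControl replicate 3, with adjusted p from 0.0635 to 0.0789 (limma). XAF1, a pro-apoptotic gene that antagonises XIAP, had 62.71, 66.83 and 64.98 FPKM in siOXTR, against 50.45, 50.01 and 52.60 FPKM in siControl. It rose by 0.34 (SE 0.0511, adjusted p = 0.000156) and by 0.21 (adjusted p = 0.00512) after TMM scaling. TRIM22, a ubiquitin ligase gene active against retroviruses, had 59.95, 61.64 and 60.24 FPKM in siOXTR, against 53.45, 50.93 and 58.43 FPKM in siControl. It rose by 0.16 (SE 0.0578, adjusted p = 0.0315) as deposited and stood at 0.031 (adjusted p = 0.688) after TMM scaling. The deposited call of TRIM22 was lost when any library except siControl replicate 3 was left out, with adjusted p from 0.0592 to 0.105 (limma). TRIM22 shares its locus with the opposite-strand gene TRIM5. TRIM5 rose by 0.30 (adjusted p = 0.00194) as deposited and by 0.175 (adjusted p = 0.0459) after TMM scaling, and its part in the TRIM22 values was not tested.

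Ratios between genes within a library do not depend on how libraries are scaled, and 4 pairs, chosen after their values had been seen, set a lower gene against a higher one. The ratio of RSAD2 to CMPK2 was 1.82, 1.87 and 1.84 in siOXTR, against 3.75, 3.47 and 3.51 in siControl, a log2 difference of -0.95. IFIT1 to IFIT3 was 0.707, 0.744 and 0.739 in siOXTR, against 0.975, 1.01 and 1.01 in siControl, a log2 difference of -0.45. IFI6 to ISG15 averaged 0.823 ± 0.0347 in siOXTR and 1.11 ± 0.0808 in siControl, and BST2 to MX1 averaged 0.363 ± 0.0245 in siOXTR and 0.566 ± 0.0473 in siControl (SD, n = 3 each). Since each pair sets a gene below siControl in every library against a gene above it, the direction and the separation of the ratios follow from that choice, and no test was made.

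**Figure D4:**
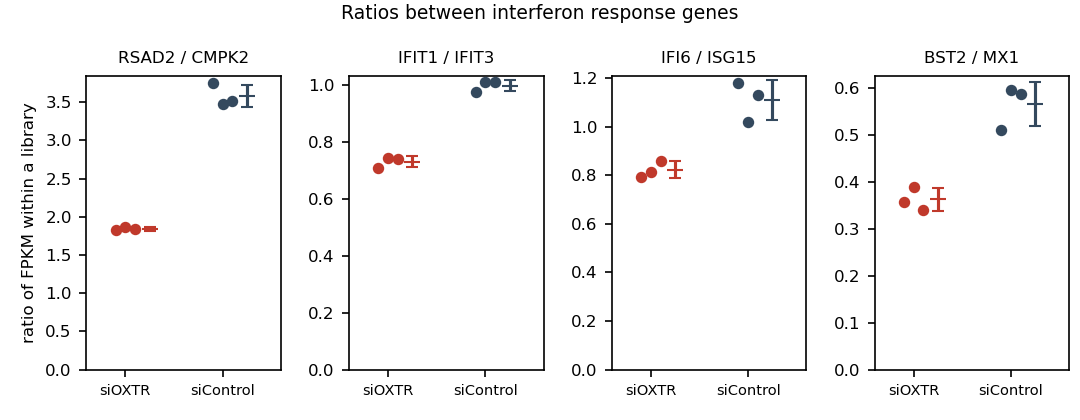
Ratio of FPKM within each library for 4 gene pairs, siOXTR left of siControl, with points for libraries and bars for the mean and SD of 3. The RSAD2 to CMPK2 ratio is 1.82 to 1.87 in siOXTR and 3.47 to 3.75 in siControl. The pairs were chosen so that the groups separate.

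The interferon receptor genes, those for type I, lambda and gamma interferons, moved opposite to most of the response. All 6 receptor genes fell, as deposited and after TMM scaling, where 17.6% and 24.6% of all tested genes were lower. IFNAR1 had 11.17, 10.86 and 11.03 FPKM in siOXTR, against 13.29, 13.76 and 14.25 FPKM in siControl. IFNAR2 had 6.20, 6.17 and 6.59 FPKM in siOXTR, against 8.66, 8.23 and 8.27 FPKM in siControl. These are the chains of the type I receptor, and their log2 fold changes were -0.30 (SE 0.0566, adjusted p = 0.000859) and -0.36 (SE 0.0609, adjusted p = 0.000381). IL10RB, the chain that the lambda receptor shares with the interleukin 10 receptor, averaged 18.4 ± 0.486 FPKM in siOXTR and 28.6 ± 0.400 FPKM in siControl (SD, n = 3 each), a log2 fold change of -0.61. IFNGR1 and IFNGR2, which form the receptor of interferon gamma, changed by -0.86 (SE 0.0756, adjusted p = 1.55e-06) and -0.48 (SE 0.0556, adjusted p = 1.93e-05), and the lambda chain IFNLR1, at about 1 FPKM, by -0.23 (SE 0.0804, adjusted p = 0.0275). The IFNLR1 call was lost without siOXTR replicate 1, siOXTR replicate 3, siControl replicate 1 or siControl replicate 2, with adjusted p from 0.0552 to 0.0959 (limma).

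Interferon genes themselves were expressed in both groups. IFNB1, the type I interferon made by most cells, had 9.80, 10.04 and 10.20 FPKM in siOXTR, against 7.82, 9.91 and 10.58 FPKM in siControl. The groups overlapped and a log2 difference of 0.087 (SE 0.0887, adjusted p = 0.412) did not pass. IFNL1, a lambda interferon gene, had 24.36, 26.13 and 24.10 FPKM in siOXTR, against 19.32, 21.54 and 21.11 FPKM in siControl. It rose by 0.26 (SE 0.0602, adjusted p = 0.0032) as deposited and stood at 0.13 (adjusted p = 0.0918) after TMM scaling. IFNL2 averaged 15.1 ± 0.907 FPKM in siOXTR and 16.2 ± 1.05 FPKM in siControl, and IFNL3 17.4 ± 1.90 FPKM in siOXTR and 19.8 ± 2.24 FPKM in siControl (SD, n = 3 each). Neither passed as deposited, both were lower after TMM scaling, at -0.22 (adjusted p = 0.0161) and -0.30 (adjusted p = 0.0171), and as nearly identical copies they may share reads. IFNL3 was also lower in the deposited values without siOXTR replicate 3 or siControl replicate 1, at adjusted p of 0.0373 and 0.0225 (limma). Of the 10 ligand genes considered, 4 were tested, IFNE and IFNW1 were below the filter, and IFNA1, IFNA2, IFNK and IFNG were not analysed here.

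Between receptor and targets, changes were small, and the share of genes that rose was near or below that of all tested genes. Of 10 JAK, STAT and feedback genes 5 rose and none fell as deposited, and 1, PTPN6, rose after TMM scaling, shares of 50% and 10% beside 42.2% and 19.2% of all tested genes. JAK1 and TYK2 did not pass, at 0.12 (SE 0.0525, adjusted p = 0.0674) and 0.11 (SE 0.0652, adjusted p = 0.173), though JAK1 reached an adjusted p of 0.0499 (limma) without siControl replicate 1. The phosphatase genes PTPN6 and PTPN2 rose by 0.39 and 0.21, STAT3 by 0.20, and SOCS1, an inhibitor of JAK kinases, by 0.34 on the log2 scale. Of 15 tested sensor, adaptor and IRF genes 7 rose (46.7%) and none fell, and after TMM scaling 2 rose (13.3%). The count of 7 became 4 without siOXTR replicate 1. DHX58, which encodes LGP2, a helper of MDA5, was low, with 1.76, 1.46 and 1.37 FPKM in siOXTR, against 0.95, 1.06 and 0.85 FPKM in siControl (log2 fold change 0.37 (SE 0.0889, adjusted p = 0.00359)). IRF1 averaged 77.6 ± 2.97 FPKM in siOXTR and 61.4 ± 3.47 FPKM in siControl (SD, n = 3 each), a change of 0.34 (SE 0.0568, adjusted p = 0.000376). These were the pair that kept their call after TMM scaling, whereas ADAR and TBK1, which rose by 0.27 and 0.27 as deposited, lost it.

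A wider list held 30 other interferon effectors. Of these 18 rose (60%) and 4 fell (13.3%) as deposited, beside 42.2% and 17.6% of all tested genes, with a median log2 fold change of 0.19 beside 0.13. After TMM scaling 9 rose (30%) and 4 fell (13.3%), beside 19.2% and 24.6% of all tested genes, with a median of 0.064 beside 0.012. IFI35, a leucine zipper protein gene, had 106.32, 101.60 and 97.72 FPKM in siOXTR, against 74.70, 78.90 and 66.91 FPKM in siControl and rose by 0.47 (SE 0.0645, adjusted p = 7.95e-05). LGALS3BP, a secreted glycoprotein gene, fell, averaging 217 ± 2.53 FPKM in siOXTR and 509 ± 32.1 FPKM in siControl (SD, n = 3 each), a log2 fold change of -1.23 (SE 0.0575, adjusted p = 5.51e-09). TAP1, which carries peptides into the endoplasmic reticulum for MHC class I, fell, averaging 115 ± 1.99 FPKM in siOXTR and 191 ± 11.3 FPKM in siControl (SD, n = 3 each), a log2 fold change of -0.72 (SE 0.0554, adjusted p = 4.46e-07). The count of 4 lower genes became 2 with no filter on low values, and also without siOXTR replicate 1, siOXTR replicate 2, siControl replicate 1 or siControl replicate 3.

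**Figure D5:**
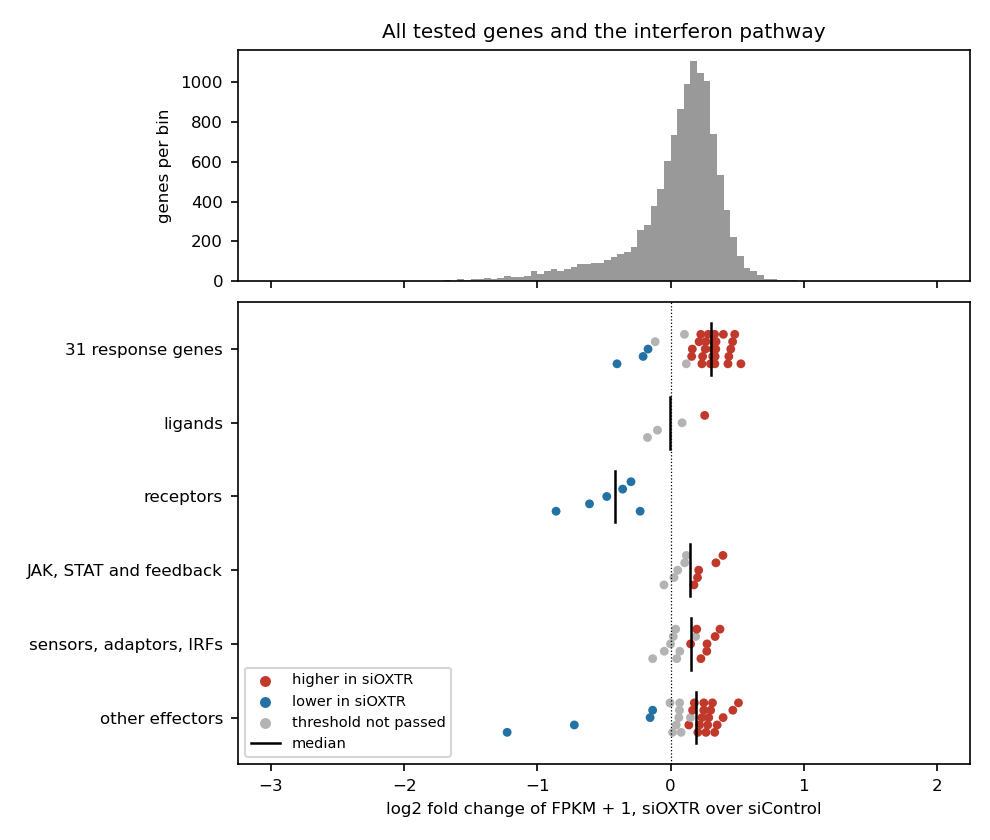
Histogram of the log2 fold changes (siOXTR over siControl, as deposited) of 11550 tested genes, above the values of the 31 response genes and of the tested genes in 5 other interferon lists, with a bar at each median. The 6 receptor genes lie between -0.86 and -0.23, and the median of the 31 response genes is at 0.30.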

How the data were processed

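The authors deposited FPKM per gene and library, rounded to 2 decimals, per the file headers, for 3 siOXTR and 3 siControl libraries. The build named in the submitters' processing notes is GRCh38.p13. Library preparation was for BGISEQ-500, per the labels' protocols. For the aligner, quantifier, annotation and strand setting, nothing is given in the sources used here. FPKM divides by a library total, so a fall of abundant genes would raise others, and whether this happened here was not tested.

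The 31 genes were matched by symbol, and members, lists and pathway genes were chosen with earlier results of these data known. The 11550 genes whose 6-library mean was 1 FPKM or more were tested on log2(FPKM + 1), a scale that understates changes of low genes, with limma 3.58.1 in R 4.3.3 (group as the only term, trended robust moderated variances, two-sided). P-values were adjusted by Benjamini-Hochberg over all tested genes at 0.05, and every adjusted p printed comes from these fits. The test was checked on simulated data with independent noise and few genes changed. No shift shared by most genes was simulated, so the check does not cover one. Alternatives were TMM scaling (trimmed mean of log ratios, trims of 0.3 and 0.05, recomputed on the FPKM of tested genes), median centring, pseudocounts of 0.1 and 0.5, no filter, a minimum of 5 FPKM, a replicate block, an ordinary prior and leaving out each library. Equal values made up at most 0.606% of tested genes in any pair of libraries from a group, and each library is 1 replicate.

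Every member was named, and from each pathway list up to 4 genes past the threshold with the largest change, plus JAK1, TYK2, IFNAR1, IFNAR2 and OXTR. Some genes that this rule takes are not reported here. Other names were chosen after their values were seen. Gene positions come from GENCODE release 29 (GRCh38), promoters from RefSeq (GRCh38.p14).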

Additional observations from a re-analysis of the deposited data

How the results depend on the processing

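Scaling moved the count of higher genes, and leaving out a library the count of lower ones. TMM scaling and median centring gave 16 response genes higher, in place of 25, with a median log2 fold change of 0.17 and 0.18, in place of 0.30. They gave 12 of the 65 tested pathway genes higher (18.5%), in place of 31 (47.7%). Of all tested genes 2213 (19.2%) and 2285 (19.8%) were higher, in place of 4869 (42.2%). Lower were 12 pathway genes (18.5%), in place of 10 (15.4%), beside 24.6% and 24.2% of all tested genes, in place of 17.6%. DDX58 changed sign, to -0.024 with TMM scaling and -0.019 with median centring, and so did IFIT2, to -0.011 and -0.0062, though neither gene passed under any scaling. Leaving out a library gave 23 to 25 response genes higher and 1 to 3 lower, and of the genes called with all libraries, 23 stayed higher and 1 (RSAD2) lower in all 6 such fits. Libraries with the same replicate number had correlations of deviations of 0.107, 0.0042 and 0.16. Those with different numbers ran from -0.31 to 0.208. With 3 libraries per group, these values cannot settle whether equal numbers pair the libraries. Of all tested genes, 5100 were higher with a replicate block, in place of 4869. A replicate block gave 25 response genes higher and 3 lower, and changed the call of none of the 31 genes. Among the 65 tested pathway genes the block called IFNL3 lower (adjusted p = 0.022) and IRF3 higher (0.0167), and lost TDRD7 (0.0547). With no filter on low values IFI6 (0.0564) and TRIM22 (0.0577) lost their calls, giving 24 higher and 2 lower, and with an ordinary prior TRIM22 did (0.0508), all by limma. A looser motif, GAAA, 2 bases and GAA, was found for 18 of 24 genes, and for 8.58% of tested genes. Depth is unknown for these files, so no limit of detection can be given for the low genes.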
